A study of Homo sapiens with 15 samples.

Results

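Autophagy delivers cytoplasmic cargo to the lysosome, and the genes described here encode the proteins that connect cargo to the growing autophagosome membrane. The set holds 9 of the 60107 genes listed: the 5 cargo receptor genes SQSTM1 (which encodes p62), NBR1, OPTN (optineurin), TAX1BP1 and CALCOCO2 (NDP52), and the 4 ATG8 family genes MAP1LC3B (LC3B), GABARAP, GABARAPL1 and GABARAPL2. They were picked out in the files by gene symbol.

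The cells were MIA PaCa-2, an established human pancreatic carcinoma line labelled as epithelial. Total RNA was sequenced in 15 libraries, 3 for each of 5 groups. In the labels these groups differed only in the agent. It was vehicle (labelled Ctrl), or Lys05, BAQ12, BAQ13 or BAQ12O at 5 µM, given for 24 h. The paper names the BAQ13 treatment of these cells as nanoparticles. Lys05 is a dimeric aminoquinoline that accumulates in lysosomes and impairs their function, and BAQ12 and BAQ13 are bisaminoquinolines that join its pharmacophore to that of a lysosomotropic detergent and assemble into nanoparticles in water. The structure of BAQ12O is not given in the sources used here. The line has no genetic modification in the labels, and nothing in them says that the 3 libraries of a group came from separate cultures, so the p-values measure only the spread between these libraries, which may be technical.

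A cargo receptor binds ubiquitin or another tag on its cargo with one part of the protein and an ATG8 protein with another, through a short LC3-interacting region. ATG8 proteins are cleaved by ATG4 proteases and joined to phosphatidylethanolamine on the autophagosome membrane, where they recruit receptors and help the autophagosome to close and fuse with the lysosome. Receptors and the ATG8 proteins on the inner membrane are themselves degraded in the lysosome, so the protein levels of p62 and LC3B are widely read as measures of autophagic flux. The present data are mRNA levels, which are set separately from protein turnover.

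The libraries held 1586566 to 2500551 reads on genes (median 2230594), and all values below are normalised read counts, that is, reads divided by the size factor of the library. BAQ12 replicate 3 stood apart from the others, with a median correlation of log2 values with the other libraries of 0.937, against 0.965 in BAQ13 replicate 1 and 0.972 to 0.980 in the other 13. These 2 libraries resembled each other: BAQ12 replicate 3 correlated at 0.969 with BAQ13 replicate 1, and at 0.927 and 0.937 with BAQ12 replicates 1 and 2. Their deviations from their own group means correlated at 0.57. The cause was not tested. EPCAM, a defining epithelial marker, was listed at 0 in every library except BAQ12O replicate 3 (1.38), and CDH1 (E-cadherin) lay between 0 and 6.28, whereas VIM (vimentin) lay between 9198 and 10781. Of the 6 epithelial markers, the keratins KRT8, KRT18 and KRT19 were the 3 with a mean over 10 reads. Of the 4 mesenchymal markers (VIM, CDH2, ZEB1 and FN1), 2 had a mean over 10 reads. Markers of leukocytes summed to 3.35 to 17.2 and those of acinar and islet cells to 0 to 1.38 over the libraries. Those of fibroblasts summed to 174 to 289 and those of endothelial cells to 23.9 to 75.3. Of these, 2 of 5 and 1 of 3 had a mean over 10 reads.

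All 9 genes passed the filter on low counts, with 20 to 847 reads per gene and library. Of these, SQSTM1 and OPTN rose after BAQ12, BAQ13 and BAQ12O, and no member passed the test after Lys05 (limma, adjusted p under 0.05 over 10495 genes). The count was therefore 2 of 9 in each of those 3 comparisons with vehicle. Among all genes tested, the share called was 0.981% for BAQ12, 5.77% for BAQ13 and 1.48% for BAQ12O. For Lys05, 0 of 9 members were called by limma, and likewise by edgeR and DESeq2, against 0.238% of all genes. At an unadjusted p under 0.05 the Lys05 comparison held 1 member, OPTN, and 523 genes (4.98%) in all. The median log2 fold change over the 9 genes was 0.13 for Lys05, 0.11 for BAQ12, 0.49 for BAQ13 and 0.10 for BAQ12O, and that over all genes tested lay within 0.01 of 0 in each. The 4 comparisons share the vehicle libraries and are not independent of each other.

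**Figure D1:**
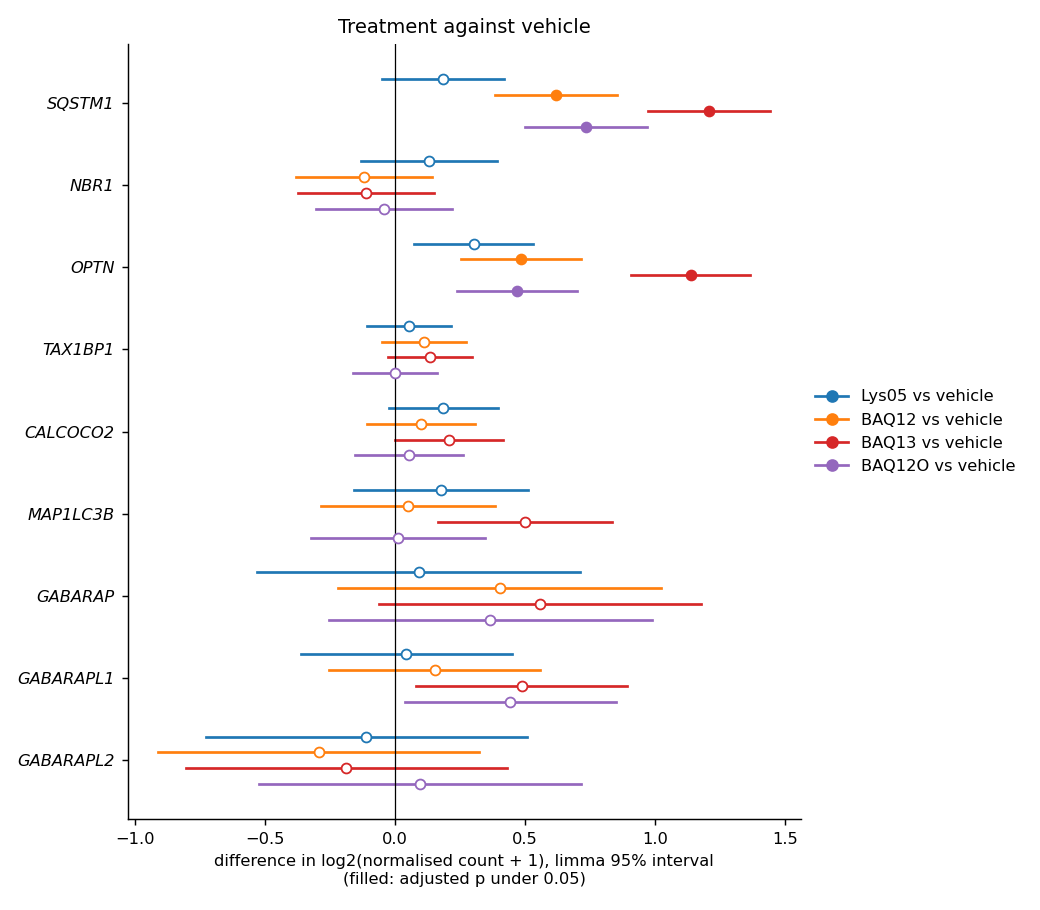
Difference of each treatment from vehicle for the 9 genes, in log2(normalised count + 1) on the horizontal axis, with 95% intervals from limma over 15 libraries. Filled points have an adjusted p under 0.05; they are the points of SQSTM1 and OPTN for BAQ12, BAQ13 and BAQ12O, with the BAQ13 points at 1.21 and 1.14.

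SQSTM1 (ENSG00000161011, GRCh38, chromosome 5, 179806398 to 179838078, plus strand) encodes p62, a receptor that gathers ubiquitinated proteins into bodies and also binds KEAP1, the adaptor that targets NRF2 for degradation. The vehicle libraries held 282, 309 and 312 normalised counts and the Lys05 libraries 333, 345 and 349. With BAQ12 the values were 399, 430 and 578, with BAQ13 720, 660 and 710, and with BAQ12O 489, 543 and 474. Every treated library lay above every vehicle library, also with Lys05, and the BAQ13 libraries lay above those of all other groups. The group means were 301 ± 16.5 (SD, n = 3) with vehicle, 342 ± 8.17 with Lys05, 469 ± 95.5 with BAQ12, 697 ± 32.3 with BAQ13 and 502 ± 36.4 with BAQ12O.

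Relative to vehicle, SQSTM1 rose 2.31-fold with BAQ13, a log2 fold change of 1.21 ± 0.11 (SE, limma, adjusted p = 1.3e-06). It rose 1.66-fold with BAQ12O (log2 0.73, adjusted p = 0.0016) and 1.54-fold with BAQ12 (log2 0.62, adjusted p = 0.0066). The log2 difference for Lys05 was 0.19, with a 95% interval of -0.05 to 0.42 (adjusted p = 1.00). In all genes tested, the increase of SQSTM1 ranked 97 from the top for BAQ13, 213 for BAQ12O and 326 for BAQ12. The BAQ12 value owed part of its size to the library that stood apart: without BAQ12 replicate 3 the log2 fold change was 0.46 (adjusted p = 0.0020). The BAQ12 call was lost when vehicle replicate 1 was left out (adjusted p = 0.058).

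OPTN (ENSG00000123240, chromosome 10, 13099449 to 13138308, plus strand) encodes optineurin, which binds ubiquitin on damaged mitochondria and bacteria and is activated by the kinase TBK1. It measured 164, 146 and 151 normalised counts with vehicle, 198, 175 and 197 with Lys05, and 221, 204 and 221 with BAQ12. With BAQ13 it measured 370, 333 and 315, and with BAQ12O 190, 205 and 248. The order of the groups was close to that of SQSTM1, with BAQ13 above all others, BAQ12 and BAQ12O overlapping, and vehicle below every treated library. The group means were 154 ± 8.87, 190 ± 13.0, 215 ± 9.84, 339 ± 28.3 and 214 ± 30.3 (SD, n = 3) in the order vehicle, Lys05, BAQ12, BAQ13, BAQ12O.

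OPTN rose 2.20-fold with BAQ13 (log2 1.14 ± 0.11, SE, limma, adjusted p = 2.1e-06). The increases with BAQ12 (1.40-fold, log2 0.48, adjusted p = 0.039) and BAQ12O (1.38-fold, log2 0.47, adjusted p = 0.035) passed the threshold narrowly. The first was called in 5, and the second in 7, of 15 fits from which a single library had been removed. Adjusted p for BAQ12 reached 0.22 without vehicle replicate 2, 0.17 without vehicle replicate 3 and 0.085 without BAQ12 replicate 1, and that for BAQ12O reached 0.19 without BAQ12O replicate 3 and 0.17 without vehicle replicate 2. The Lys05 difference was 0.30 on the log2 scale with an unadjusted p of 0.013 and an adjusted p of 0.77 (limma). In contrast, the increases of OPTN and SQSTM1 with BAQ13 were called in all 15 such fits and under each of the 11 other settings.

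**Figure D2:**
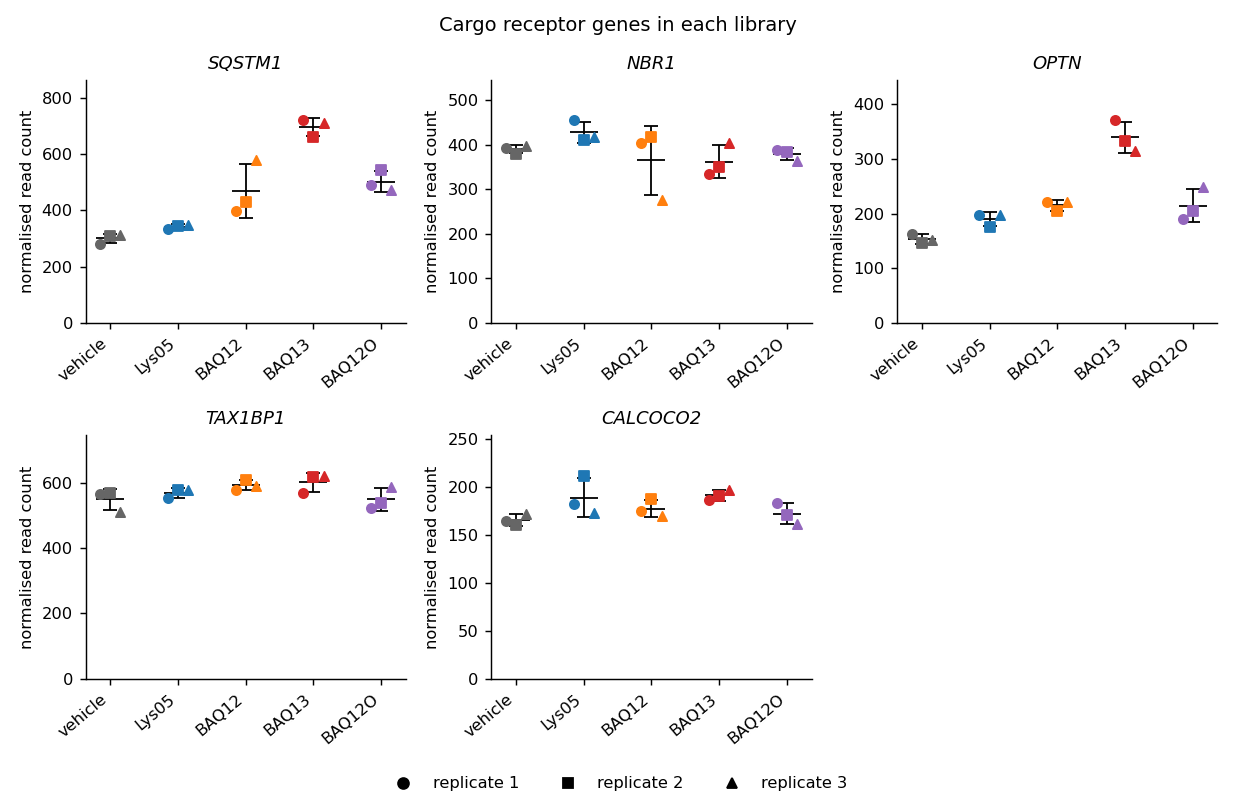
Normalised read count (vertical axes, from 0) of the 5 receptor genes in each of the 15 libraries, with group mean and SD as bars and one symbol per replicate number. SQSTM1 and OPTN are highest in the BAQ13 libraries (660 to 720 and 315 to 370), and TAX1BP1, NBR1 and CALCOCO2 overlap between most groups.

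None of the other 3 receptor genes passed the test in any of the 10 comparisons. TAX1BP1, which encodes a receptor for protein aggregates and NBR1-bound cargo, lay between 512 and 622 normalised counts over all libraries, with a largest mean difference from vehicle of 0.13 on the log2 scale (BAQ13, 95% interval -0.03 to 0.29, limma adjusted p = 0.37). CALCOCO2, a receptor for invading bacteria and damaged mitochondria, lay between 160 and 211. All BAQ13 libraries (186, 190.5 and 197) were above all vehicle libraries (164, 160 and 172), and the log2 difference of 0.21 had an unadjusted p of 0.050 and an adjusted p of 0.26 in limma. The upper ends of the 95% intervals with BAQ13 were 0.29 for TAX1BP1 and 0.42 for CALCOCO2 on the log2 scale.

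NBR1 encodes a receptor that resembles p62 and cooperates with it in aggregates. Its normalised counts were 394, 380 and 397 with vehicle, 455, 410 and 418 with Lys05, and 333, 350 and 403 with BAQ13. With BAQ12 they were 403, 417 and 276, and with BAQ12O 389, 383 and 364. The low value of 276 belonged to the library that stood apart. The log2 difference from vehicle was -0.11 with BAQ13 (95% interval -0.37 to 0.15, limma adjusted p = 0.69), so that of the structurally related pair SQSTM1 and NBR1 only the former was called.

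Of the ATG8 genes, none was called in a comparison with vehicle in the fit of all 15 libraries. MAP1LC3B (ENSG00000140941, chromosome 16, 87383995 to 87404779) encodes LC3B, the form most used as an autophagosome marker. It measured 149, 160 and 171 with vehicle, 185, 192 and 165 with Lys05, and 189, 204 and 117 with BAQ12. With BAQ13 it measured 204, 238 and 236, and with BAQ12O 155, 152 and 176. All BAQ13 libraries were above all vehicle libraries, while the BAQ12 libraries held both values above and a value below the vehicle range. The BAQ13 difference was 0.50 ± 0.16 (SE) on the log2 scale, 1.41-fold, with a limma adjusted p of 0.077.

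The result for MAP1LC3B depended on 1 library of another group. Without BAQ12 replicate 3, in which MAP1LC3B was at 117, the BAQ13 difference of 0.50 had an SE of 0.10 and an adjusted p of 0.00092 in limma. With the 6 vehicle and BAQ13 libraries alone the adjusted p was 0.0081, and without both BAQ12 replicate 3 and BAQ13 replicate 1 it was 6.9e-05 for a difference of 0.57. In edgeR and DESeq2 on all libraries it was 0.051 and 0.055. The size and direction did not depend on that library, which enters the BAQ13 comparison only through the shared estimate of the spread.

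GABARAP, which encodes a protein that acts late in autophagosome maturation, had the widest spread. It measured 71.4, 71.5 and 70.7 with vehicle and 75.6, 71.9 and 80.3 with Lys05. With BAQ12 it measured 61.4, 74.8 and 182, with BAQ13 159, 89.3 and 82.1, and with BAQ12O 91.6, 103 and 82.7. The high values in BAQ12 and BAQ13 came from BAQ12 replicate 3 and BAQ13 replicate 1. The BAQ13 difference of 0.56 on the log2 scale (limma adjusted p = 0.32) was 0.26 without BAQ13 replicate 1 (adjusted p = 0.76). Without BAQ12 replicate 3 instead it was called (0.56, adjusted p = 0.026).

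GABARAPL1, a gene often raised in starvation and transcribed under FOXO control in several cell types, rested on 20 to 41 reads per library. It measured 19.9, 23.4 and 28.5 with vehicle, 25.6, 21.9 and 26.1 with Lys05, and 24.8, 29.8 and 25.1 with BAQ12. With BAQ13 it measured 34.5, 36.5 and 30.2, and with BAQ12O 29.1, 39.1 and 30.3. The libraries of both BAQ13 and BAQ12O lay above those of vehicle, by 0.49 and 0.44 on the log2 scale, and neither difference passed the adjustment (limma adjusted p = 0.16 and 0.33). At this depth the 95% interval for BAQ13 ran from 0.08 to 0.89.

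GABARAPL2 (GATE-16), whose product takes part in autophagosome maturation and intra-Golgi transport, measured 93.8, 69.2 and 78.0 with vehicle and 92.6, 57.3 and 75.6 with Lys05. With BAQ12 it measured 85.3, 87.6 and 36.4, with BAQ13 45.7, 83.8 and 88.8, and with BAQ12O 76.5, 87.7 and 92.4. Every treated group overlapped vehicle, and the lowest values were those of BAQ12 replicate 3 and BAQ13 replicate 1, which held the highest values of GABARAP. The log2 difference from vehicle ranged from -0.29 with BAQ12 to 0.10 with BAQ12O (limma adjusted p = 0.68 and 0.93).

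**Figure D3:**
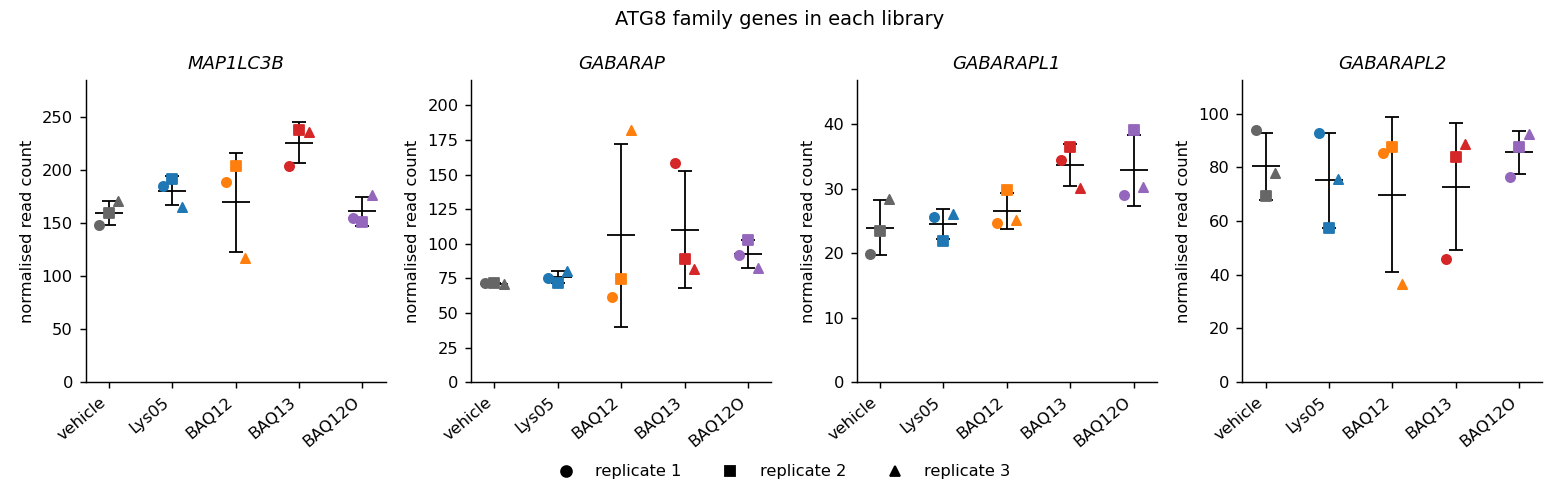
Normalised read count (vertical axes, from 0) of the 4 ATG8 family genes in each library, with group mean and SD as bars and one symbol per replicate number. The wide bars of GABARAP and GABARAPL2 under BAQ12 and BAQ13 come from BAQ12 replicate 3 (182 and 36.4) and BAQ13 replicate 1 (159 and 45.7).

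Counted by separation of the groups, 6 of the 9 genes had all BAQ13 libraries above all vehicle libraries (SQSTM1, OPTN, CALCOCO2, MAP1LC3B, GABARAP and GABARAPL1), against 14.5% of all genes tested. For Lys05 it was 5 of 9 (SQSTM1, NBR1, OPTN, CALCOCO2 and GABARAP), against 8.24%, and for BAQ12O 4 of 9 (SQSTM1, OPTN, GABARAP and GABARAPL1), against 12.5%. For BAQ12 it was 3 of 9 (SQSTM1, OPTN and TAX1BP1), against 7.75%.

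**Figure D4:**
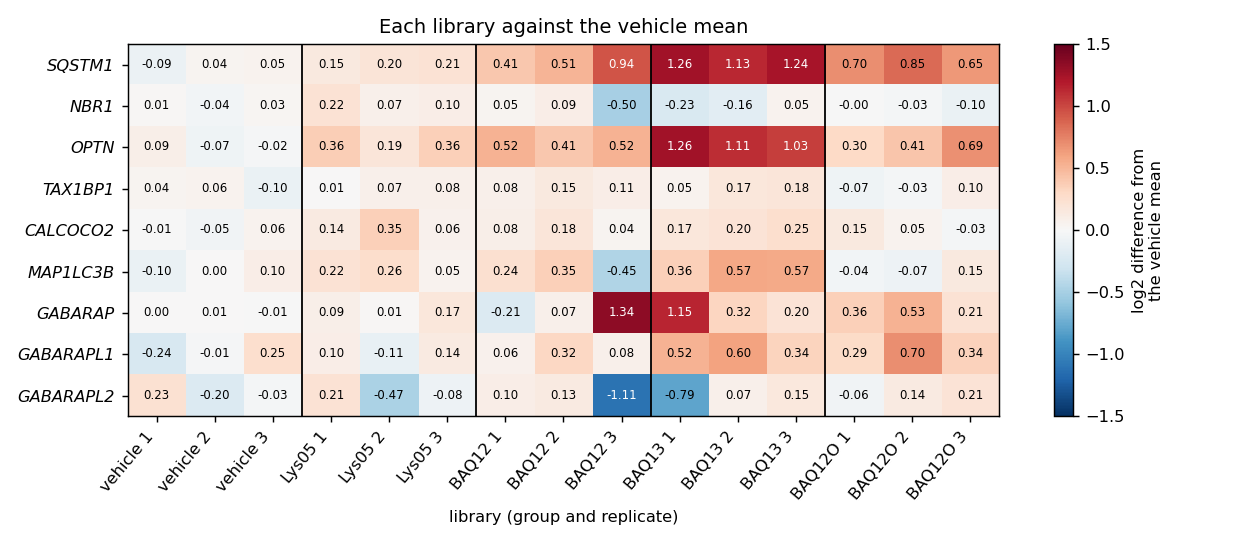
Difference of each library (columns) from the vehicle mean in log2(normalised count + 1) for the 9 genes (rows), printed in each cell and shown by colour from blue (lower) to red (higher). The rows of SQSTM1 and OPTN are red in all BAQ13 libraries, while GABARAP and GABARAPL2 move in opposite directions in BAQ12 replicate 3 (1.34 and -1.11) and BAQ13 replicate 1 (1.15 and -0.79).

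The differences between the agents at the same dose and time were then examined in 6 pairs. BAQ12 and BAQ13, which differ by a methylene unit in the hydrophobic tail, differed in both induced receptors. SQSTM1 was 0.59 higher on the log2 scale with BAQ13 than with BAQ12 (95% interval 0.35 to 0.82, limma adjusted p = 0.016), and OPTN 0.65 higher (0.42 to 0.88, adjusted p = 0.0056). The count was 2 of 9 members against 0.562% of all genes. The SQSTM1 difference was 0.75 without BAQ12 replicate 3 (adjusted p = 2.3e-06), whereas without BAQ12 replicate 1, BAQ12 replicate 2 or any single BAQ13 library its adjusted p lay between 0.054 and 0.097. In the fit of those 6 libraries alone neither gene was called (adjusted p = 0.55 for SQSTM1 and 0.17 for OPTN).

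Against Lys05, BAQ13 gave 2.03-fold more SQSTM1 (log2 1.02, limma adjusted p = 1.8e-05) and 1.78-fold more OPTN (log2 0.83, adjusted p = 0.00014). Both held in every other setting and with each library left out, and the count of 2 of 9 compares with 2.66% of all genes. MAP1LC3B was 0.32 higher on the log2 scale with BAQ13 than with Lys05 (limma adjusted p = 0.37). That difference was called in 1 of 15 fits with one library left out and under 1 of the 11 other settings. BAQ12 and Lys05 were not told apart for any member (0 of 9 by limma, edgeR and DESeq2, 0.162% of all genes). At an unadjusted p under 0.05, 1 member, SQSTM1, and 7.17% of all genes passed. The SQSTM1 difference between them was 0.43 (95% interval 0.20 to 0.67, adjusted p = 0.25) and the OPTN difference 0.18 (-0.05 to 0.41, adjusted p = 0.70).

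BAQ12O lay below BAQ13 for SQSTM1 by a log2 difference of -0.47 (limma adjusted p = 0.043) and for OPTN by -0.67 (adjusted p = 0.0024), 2 of 9 members against 1.39% of all genes. The SQSTM1 call was lost without any single vehicle, Lys05, BAQ13 or BAQ12O library, with adjusted p from 0.060 without vehicle replicate 1 to 0.21 without BAQ12O replicate 3. BAQ12O exceeded Lys05 in SQSTM1 alone (log2 0.55, adjusted p = 0.048, 1 of 9 against 0.248%), and this call was lost in 13 of the 15 fits with one library left out, with adjusted p up to 0.33 without BAQ12O replicate 2. Between BAQ12O and BAQ12 no member was called by limma, edgeR or DESeq2 (0.229% of all genes), and at an unadjusted p under 0.05 it was 0 members and 8.38% of all genes. The intervals were -0.12 to 0.35 for SQSTM1 and -0.24 to 0.21 for OPTN, which do not show that the agents act alike.

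**Figure D5:**
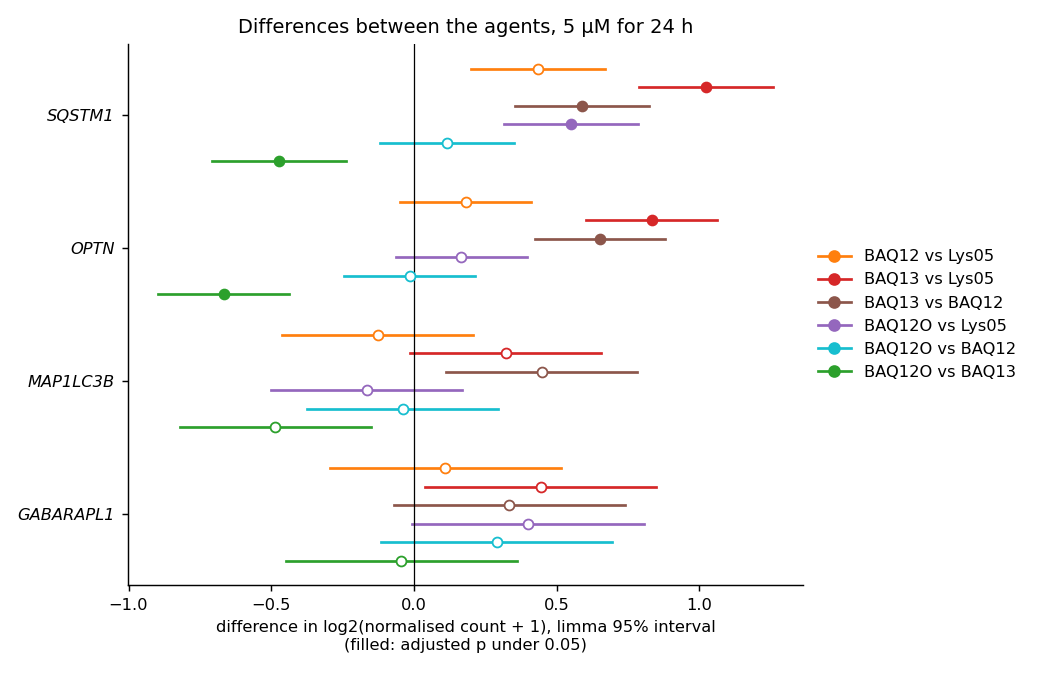
Log2 difference between each pair of agents at 5 µM for 24 h, with limma 95% intervals, for the induced receptors SQSTM1 and OPTN and for the ATG8 genes MAP1LC3B and GABARAPL1. Filled points have an adjusted p under 0.05: BAQ13 is above Lys05, BAQ12 and BAQ12O in SQSTM1 (1.02, 0.59 and, with the sign of the plotted pair, -0.47) and in OPTN (0.83, 0.65 and -0.67), and BAQ12O is above Lys05 in SQSTM1 (0.55).

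In order of level, SQSTM1 thus ran from BAQ13 through BAQ12O, BAQ12 and Lys05 to vehicle, and of these neighbours only BAQ13 and BAQ12O were told apart. OPTN ran from BAQ13 through BAQ12, BAQ12O and Lys05 to vehicle, and again only the step below BAQ13 passed the test. For MAP1LC3B the 95% intervals of BAQ13 against BAQ12 (0.11 to 0.78) and of BAQ12O against BAQ13 (-0.82 to -0.15) did not include 0, but the adjusted p-values were 0.38 and 0.20 (limma). Without BAQ12 replicate 3 the former difference went from 0.45 to 0.20 (adjusted p = 0.41), while the latter, -0.49, was called (adjusted p = 0.0035). The latter was also called in the 6 libraries alone (adjusted p = 0.042) and without both libraries that stood apart (-0.56, adjusted p = 0.00025).

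The start of each induced gene is shown because SQSTM1 and OPTN rose in the same treatments. Promoter windows of RefSeq (GRCh38.p14) were available for all 9 members, 14 windows in all, and the 250 bases before each start were searched on both strands for 8 motifs. The first stretches shown, of SQSTM1 and OPTN, do not lie in an untranslated or coding exon part of GENCODE release 29, and capitals mark matches to the GC box GGGCGG, which is bound by SP1 family factors, and to TCANNTGA, an E-box core with a flanking T and A. The MiT/TFE factors, which control lysosomal genes, bind E-boxes with a CACGTG or CATGTG core, and the core of the match in OPTN is CAGCTG.
SQSTM1, chr5:179806335-179806392, plus strand: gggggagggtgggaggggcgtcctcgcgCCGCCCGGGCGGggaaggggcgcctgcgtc
SQSTM1, chr5:179806935-179807008, plus strand: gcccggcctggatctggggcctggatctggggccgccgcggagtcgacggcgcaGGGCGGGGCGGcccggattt
OPTN, chr10:13099959-13100162, plus strand: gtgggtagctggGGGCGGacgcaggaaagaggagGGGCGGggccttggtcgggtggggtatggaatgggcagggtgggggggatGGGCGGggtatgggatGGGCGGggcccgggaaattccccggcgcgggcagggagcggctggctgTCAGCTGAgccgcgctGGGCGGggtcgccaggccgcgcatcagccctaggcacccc

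The TCAGCTGA of OPTN begins 56 bases before the RefSeq start. Matches to the same pattern, with a CACCTG core, were found 51 bases before the start of MAP1LC3B and 123 bases before that of CALCOCO2, and in none of the 3 windows of SQSTM1. It stood in 3 of the 14 member windows and in 6.12% of all 35116 windows. Near the start of MAP1LC3B and CALCOCO2 it overlapped the antioxidant response element TGACNNNGC, the site of NRF2. That element stood in 2 of the 14 member windows and in 10.9% of all windows. No window of SQSTM1 or OPTN held it. The next stretches lie within exon parts of GENCODE release 29, and their capitals mark the E-box in MAP1LC3B and the cAMP response element TGACGTCA in GABARAPL1, the latter present 30 bases before the start and in 1.65% of all windows.
MAP1LC3B, chr16:87392274-87392303, plus strand: cgcgtcgcgagTCACCTGAccaggctgcgg
GABARAPL1, chr12:10212836-10212865, plus strand: ggctcgcggggTGACGTCAcagcccgacgc

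The FOXO motif GTAAACA was found in CALCOCO2 alone, 226 bases before the start (2.98% of all windows). The palindromic E-box CACGTG, the longer CLEAR element and the sterol regulatory element TCACNCCAC were found in no member window, and in 6.34%, 0.308% and 0.883% of all windows. The GC box stood in 13 of the 14 windows, against 42.6% of all. The share of G and C was 73.6% to 75.2% in the SQSTM1 windows and 63.6% to 74.4% in those of OPTN, with a median over all windows of 58.0%. These matches are a description of letters, and binding was not measured.

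The genes whose log2 values followed SQSTM1 most closely over the 15 libraries were FASN (fatty acid synthase, Pearson r = 0.97), RRAGD (a Rag GTPase of the lysosomal mTORC1 pathway, 0.96) and TPP1 (a lysosomal peptidase, 0.96). The mean of FASN was 499 with vehicle, 645 with Lys05, 1003 with BAQ12, 1708 with BAQ13 and 921 with BAQ12O. Those closest to OPTN were CALD1 (caldesmon, 0.97), SQLE (squalene epoxidase, 0.96) and PLA2G3 (a secreted phospholipase, 0.96). SQLE averaged 135, 156, 234, 510 and 204 in the same order of groups, and PLA2G3 0.31, 1.72, 3.75, 18.4 and 3.65. PLA2G3 was thus under the floor of 3 reads with vehicle and Lys05 and near it with BAQ12 and BAQ12O. Its correlation with OPTN therefore rests largely on the BAQ13 libraries. The libraries share their groups, so these values describe the pattern over the 5 groups.

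MAP1LC3A, a paralogue of MAP1LC3B, had 904 reads in all and is described with the other ATG8 genes. MAP1LC3B2 had 14 reads in all libraries together, and GABARAPL3, MAP1LC3C and the pseudogenes SQSTM1P1 and MAP1LC3BP1 had 0, while NBR2, the neighbour of NBR1, had 162. SQSTM1 overlaps MGAT4B by 555 bases on the opposite strand, and MGAT4B, with 12610 reads in all, rose by 0.39 on the log2 scale with BAQ13 (limma adjusted p = 0.046, called in 3 of 15 fits with one library left out). SQSTM1 also overlaps MRNIP (700 reads) by 2946 bases and MAP1LC3B overlaps FBXO31 (356 reads) by 8148 bases. Whether the counting used strand is not given in the sources used here, and the part of these overlaps in the values was not tested.

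The other genes of the pathway were examined in lists by role. In the list of initiation and membrane supply, 4 of 20 genes tested rose with BAQ13 and 0 fell, against 3.58% of all genes called higher and 2.19% called lower. WIPI1, which binds phosphatidylinositol 3-phosphate on the forming autophagosome, measured 21.6, 29.0 and 23.9 with vehicle and 60.7, 53.8 and 61.2 with BAQ13 (log2 1.21, limma adjusted p = 0.00045). The vehicle and BAQ13 libraries did not overlap. The others were AMBRA1, a regulator of the lipid kinase complex (log2 0.66, adjusted p = 0.018), ATG14, a subunit of that complex (0.48, adjusted p = 0.037), and RB1CC1, the FIP200 subunit of the ULK1 complex (0.31, adjusted p = 0.012). In the fit of all libraries ATG14 also rose with BAQ12O (0.61, limma adjusted p = 0.022), called in 11 of 15 fits with one library left out. It was the 1 of 20 called there, against 0.934% of all genes called higher. The list had 0 of 20 with Lys05 or BAQ12, against 0.0762% and 0.572% of all genes called higher. The ATG14 and AMBRA1 calls were lost in 7 and 3 of the 15 fits with one library left out for BAQ13, RB1CC1 in 3, and WIPI1 in none.

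Of the 11 genes for ATG8 conjugation and processing, ATG16L1, which directs the conjugation machinery to the membrane, was the only one called. It fell by 0.88 on the log2 scale with BAQ13 (vehicle 29.9, 38.0 and 33.0, BAQ13 18.7, 13.7 and 21.8, limma adjusted p = 0.021, called in 11 of 15 fits with one library left out). The share of all genes called lower with BAQ13 was 2.19%. None of the 15 other cargo receptor genes tested was called against vehicle in the fit of all libraries. The shares of all genes called were 0.238% for Lys05, 0.981% for BAQ12, 5.77% for BAQ13 and 1.48% for BAQ12O. MAP1LC3A, the other ATG8 gene with enough reads, measured 45.7, 32.4 and 42.2 with vehicle and 121, 62.9 and 35.2 with BAQ13, with 143 in BAQ12 replicate 3 (BAQ13 log2 0.69, adjusted p = 0.39). The vehicle and BAQ13 libraries of MAP1LC3A overlapped. Its log2 difference from vehicle was 0.74 with BAQ12 and 0.61 with BAQ12O, neither called in the fit of all libraries. Without both libraries that stood apart it was called higher with BAQ12O, where 4.47% of all genes were.

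Among 9 tested regulators of receptor genes and receptor function, 2 rose with BAQ13 and 0 fell, beside the 3.58% of all genes called higher. PINK1, the kinase that marks damaged mitochondria for the receptors, rose by 0.74 (limma adjusted p = 0.0069) from 60.6, 72.6 and 62.4 to 98.0, 102 and 131. DDIT3 (CHOP), a transcription factor of the integrated stress response, rose by 1.04 (adjusted p = 0.0053) from 34.9, 34.6 and 37.6 to 105, 60.2 and 65.4. The libraries of both genes did not overlap between vehicle and BAQ13, and both calls held with each library left out.

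SQSTM1 is itself a target of NRF2, so the NRF2 target list was examined, in which 2 of 11 genes rose and 0 fell with BAQ13, again beside 3.58% of all genes called higher. HMOX1 (haem oxygenase 1) measured 47.3, 45.8 and 45.0 with vehicle and 222, 164 and 127 with BAQ13 (log2 1.84, limma adjusted p = 0.00042). GCLC, a subunit of the enzyme that starts glutathione synthesis, rose by 0.86 (adjusted p = 0.030), a call lost in 5 of 15 fits with one library left out. The other 9 did not pass, and in the fit of all libraries the list had 0 of 11 called with Lys05, BAQ12 and BAQ12O. Of all genes, 0.238%, 0.981% and 1.48% were called in these comparisons, in the same order. HMOX1 was at 181 in BAQ12 replicate 3 and at 67.0 and 82.5 in the other BAQ12 libraries (adjusted p = 0.082).

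Without BAQ12 replicate 3 the counts for BAQ13 were 5 of 20 for initiation and membrane supply, 5 of 9 for the regulators and 5 of 11 for the NRF2 targets, all higher, while for BAQ12O they were 3 of 20, 1 of 9 and 1 of 11 called higher. For BAQ13 the share of all genes called higher rose to 7.12%, and for BAQ12O it was 2.66%. Without both libraries that stood apart the BAQ13 counts were 5 of 20, 4 of 9 and 3 of 11, with 6.39% of all genes called higher. In that setting BAQ12O had 4 higher and 1 lower of 20 for initiation and membrane supply, and 3 of 9 regulators higher. BAQ12 had 1 of 20 and 0 of 9 higher. Without BAQ12 replicate 3, 1 of the 15 other cargo receptor genes was called lower with BAQ13 and 1 with BAQ12O. The shares of all genes called lower were 6.35% and 2.28%. Without both libraries, 2 of 15 were called higher with BAQ13 (6.39% of all genes) and 2 lower with BAQ12O (4.66%). For the NRF2 targets, BAQ12O had 1 higher and 1 lower in either setting, and BAQ12 had 1 higher without both. Without both, 4.47% of all genes were called higher and 4.66% lower with BAQ12O, and 1.19% higher with BAQ12.

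The keratins of the epithelial list did not move together. KRT8 fell with BAQ12, BAQ13 and BAQ12O, by 0.58, 0.85 and 0.60 on the log2 scale (limma adjusted p = 0.0061, 3.8e-05 and 0.0044), and KRT18 with BAQ13 and BAQ12O, by 0.50 and 0.43 (adjusted p = 0.0026 and 0.025, the latter called in 9 of 15 fits with one library left out). KRT19 did not pass, with log2 differences of 0.02, 0.12 and 0.12 for BAQ12, BAQ13 and BAQ12O (limma adjusted p = 0.95, 0.45 and 0.58). The 6 epithelial markers summed to 1715 to 1795 with vehicle and to 1362 to 1380 with BAQ13, and the 4 mesenchymal markers to 10244 to 10809 and 9580 to 10692. COL1A2, of the fibroblast list, fell by 0.56 with BAQ12 and 0.54 with BAQ13 (limma adjusted p = 0.011 and 0.0043). The part of these shifts in the receptor values was not tested, and in bulk RNA fewer cells with a transcript and less transcript per cell cannot be told apart.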

How the data were processed

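The authors deposited 1 normalised signal per gene and library, that is, the reads of a gene over the size factor of its library, and the submitters' processing notes name STAR, HTSeq, DESeq2 and GRCh38 without versions. The labels name a 3′ mRNA-Seq kit and the methods a stranded paired-end kit, which is unresolved, so levels were not compared between genes. Whole reads were recovered from the steps of the values (100% whole within 0.01 reads), and recomputed median-of-ratios size factors over 11705 genes matched the deposited ones at a ratio of 1.00. The floor is 3 reads, or 2.49 to 4.14 normalised counts, and covers counting error only.

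Genes were filtered with filterByExpr of edgeR 4.0.16 by group (minimum count 10, minimum total 15; 10495 kept) and tested with limma 3.58.1 (R 4.3.3) on log2(value + 1) with a variance trend, over all 15 libraries without covariates, in 10 comparisons. Fold changes on this scale understate those of low genes. P-values were adjusted by the Benjamini-Hochberg method over all genes tested, with calls under 0.05. Alternatives were edgeR and DESeq2 1.42.0 on the recovered reads, pseudocounts of 0.1 and 5, TMM scaling, other filters, a fit of just the 6 libraries of a comparison, a replicate block, each library left out, and, chosen after seeing the data, leaving out both libraries that stood apart and a spline correction for GC content. On data simulated for BAQ13 against vehicle (10495 genes, 200 changed), limma recovered 66% of 2-fold and 86% of 3-fold changes, with 8 false among 160 calls. The simulated counts were drawn independently for each gene, without a library that stood apart. These rates therefore need not hold for the deposited libraries.

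The members and lists were chosen with earlier results of these data known. Named are the 9 members, list genes called against vehicle (up to 4 per list and comparison), the 3 genes most alike, near copies, and, chosen after their values were seen, overlapping genes and called markers. Coordinates are from GENCODE release 29 (GRCh38), and promoter windows from RefSeq (GRCh38.p14).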

Additional observations from a re-analysis of the deposited data

How the results depend on the processing

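No fold change of a member called in the fit of 15 libraries changed direction under any alternative. The calls of SQSTM1 and OPTN for BAQ13 against vehicle and against Lys05 were kept throughout. Without a filter on low counts the members called were 1 for BAQ12 against vehicle, 1 for BAQ12O against vehicle, 0 for BAQ12O against Lys05 and 1 for BAQ12O against BAQ13. Of the 22539 genes then tested, 80, 118, 22 and 111 were called in the same order. With only the 6 libraries compared they were 0 for BAQ12 against vehicle and 0 for BAQ13 against BAQ12. BAQ12O against Lys05 had 0 with edgeR, 0 with a pseudocount of 0.1 and 0 with TMM scaling. BAQ12O against BAQ12 had 1, SQSTM1 (0.28 on the log2 scale, adjusted p = 0.049 in limma), without both libraries that stood apart. With each library left out the counts were 0 to 2 for BAQ12, 2 to 4 for BAQ13 and 1 to 2 for BAQ12O against vehicle, 2 to 3 for BAQ13 against Lys05, 1 to 2 for BAQ13 against BAQ12, 0 to 1 for BAQ12O against Lys05 and 1 to 3 for BAQ12O against BAQ13, and 0 in the remaining comparisons. The 4 for BAQ13 came without BAQ12 replicate 3, where 13.5% of all genes were called. These fits called 55 to 137 of all genes for BAQ12, 320 to 1436 for BAQ13 and 74 to 526 for BAQ12O against vehicle. Against Lys05 they called 152 to 811 for BAQ13 and 20 to 82 for BAQ12O. For BAQ13 against BAQ12 it was 32 to 330, and for BAQ12O against BAQ13 72 to 389. The causes were not tested.

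The replicate numbers did not pair the samples throughout: the correlations of same-numbered deviations ran from -0.49 to 0.20. Each Lys05 library and BAQ12O replicate 1 were closest to the BAQ12 library of the same number. The others were closest to a library of another number. BAQ12 replicate 3 and BAQ13 replicate 1 weigh on these correlations, which therefore cannot exclude pairing. Under the replicate block, the members called were 1 for BAQ12 against vehicle, 1 for BAQ12O against vehicle, 0 for BAQ12O against Lys05 and 1 for BAQ12O against BAQ13, and the other counts did not move. Of all 10495 genes, 77, 119, 21 and 103 were called in these 4 comparisons, in the same order.

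Of all genes, 606 were called for BAQ13 against vehicle, 1252 without both libraries that stood apart, 1436 without BAQ12 replicate 3 and 938 with 6 libraries. For BAQ12O the counts were 155, 970, 526 and 881, for BAQ12 103, 222, 137 and 31, and for Lys05 25, 96, 51 and 114. Without both libraries BAQ13 against Lys05 moved from 279 to 623, BAQ13 against BAQ12 from 59 to 239 and BAQ12O against BAQ13 from 146 to 534. BAQ12O moved from 26 to 261 against Lys05 (224 with 6 libraries) and from 24 to 288 against BAQ12 (5 with 6 libraries). BAQ13 against BAQ12 had 9 with 6 libraries. BAQ12 against Lys05 had 17, and 54 without both libraries, 26 with DESeq2, 11 without a filter and 0 with 6 libraries. Of the members, GABARAPL1 had the fewest reads, 20 to 41 per library, and the part of depth in its intervals was not tested.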
